A study of Homo sapiens with 16 samples.

Results

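The 6 plakin genes, DST, MACF1, PLEC, DSP, EVPL and PPL, were examined for the regions at which acetylation of histone H3 at lysine 27 (H3K27ac, a mark of active promoters and enhancers) was listed as changed after inhibition of O-GlcNAc transferase (OGT). DST was chosen by its count of gained regions in these same lists, and the other 5 genes as its family, so the counts per gene are a description and were not tested. A region belonged to a gene when it lay in the gene body or within 100 kb of the gene's 5′ end. By this rule 24 of 7130 listed regions belonged to the 6 genes, out of 19970 protein-coding genes on chromosomes 1 to 22 and X. Of these 24 regions, 21 were gained and 3 were lost.

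The lists came from LX-2 cells, a human line derived from hepatic stellate cells that behaves like myofibroblasts, with no engineered allele named in the labels. Control cultures were given vehicle (DMSO), and treated ones the OGT inhibitor OSMI-1 at 50 µM, called OGTi here, each for 24 h. Of 16 samples, 8 were H3K27ac ChIP-seq libraries, with 4 replicates in each arm, and the other 8 were input DNA and column purified chromatin libraries that were not used here. The deposited lists give only the position of each region, so the size of a change, its replicate spread and the read depth behind it are unknown, and the identity of the cells could not be checked against marker levels.

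Plakins are very large cytolinkers that tie the actin, microtubule and intermediate filament networks to each other and to sites of cell adhesion. The family is known best from epithelia, where desmoplakin, envoplakin, periplakin and the epithelial form of dystonin anchor keratins at desmosomes, hemidesmosomes or the cornified envelope. Dystonin and MACF1, also called spectraplakins, are also made as long forms with actin-binding and microtubule-binding ends, and their genes have many alternative transcript starts.

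DST, which encodes dystonin (BPAG1), held 13 gained and 0 lost regions, and MACF1, which encodes the microtubule-actin crosslinking factor of the same subfamily, held 7 gained and 1 lost. PLEC, which encodes plectin, the linker of intermediate filaments to hemidesmosomes and other adhesions, held 1 gained and 0 lost. PPL, which encodes periplakin of the cornified envelope and desmosomes, held 0 gained and 2 lost. DSP, which encodes the desmosomal plakin that binds keratins, and EVPL, which encodes envoplakin, the partner of periplakin, held 0 of either kind. Thus 3 of 6 genes held a gained region, where 30.6% of all protein-coding genes did, and 2 of 6 held a lost region, where 21.6% did. MACF1 alone of the 6 held both kinds, a state seen in 7.23% of protein-coding genes. Gained regions made up 50.8% of the listed regions. Nothing is read from these shares, since the counts chose the leading gene.

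All 24 regions lay within the gene bodies, and none was included through the 100 kb window alone. Just outside the rule, the closest listed region was a gained one 101264 bp from the 5′ end of PLEC. The next listed regions outside the rule lay 221 kb from the 5′ end of MACF1 (gained), 306 kb from that of EVPL (lost), 399 kb from that of DSP (lost), 476 kb from that of DST (gained) and 534 kb from that of PPL (gained). Within 1 Mb of the body of DST, 2 other gained regions and 1 lost region were listed.

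DST spans chr6:56457987-56954830 on the minus strand of hg38 (ENSG00000151914.22), a body of 497 kb with 41 transcripts in GENCODE release 44 and 39 distinct transcript starts, 20 of them starts of protein-coding transcripts. Its 13 gained regions covered 25.3 kb, or 5.1% of the body, at 2.62 regions per 100 kb. The regions formed 8 blocks once those within 1000 bp of each other were joined, because wide peaks were divided into bins before testing and several of the listed regions abut. The count therefore exceeds the number of separate acetylated domains.

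Distances are given from the 5′ end of DST to the centre of each region. The first gained region lay at 63.7 kb, within intron 3 of DST-241, the reference (MANE Select) transcript. A block of 3 abutting regions followed in the same intron at 85.7, 87.6 and 89.6 kb, running over 5938 bp at chr6:56864200-56870137. After a stretch of 112 kb with no listed region came a 260 bp region and a wider one in intron 4, at 203 and 205 kb, and 2 abutting regions in intron 5, at 222 and 224 kb. The longest block, of 7081 bp at chr6:56688492-56695572, held 3 abutting regions in intron 9 at 260, 262 and 265 kb. The region at 262 kb also overlapped 2 exons of other transcripts. The last 2 regions overlapped exons of DST-241. One lay at 312 kb over exons 16 and 17, and one at 429 kb over exon 69, 115 kb further on.

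**Figure D1:**
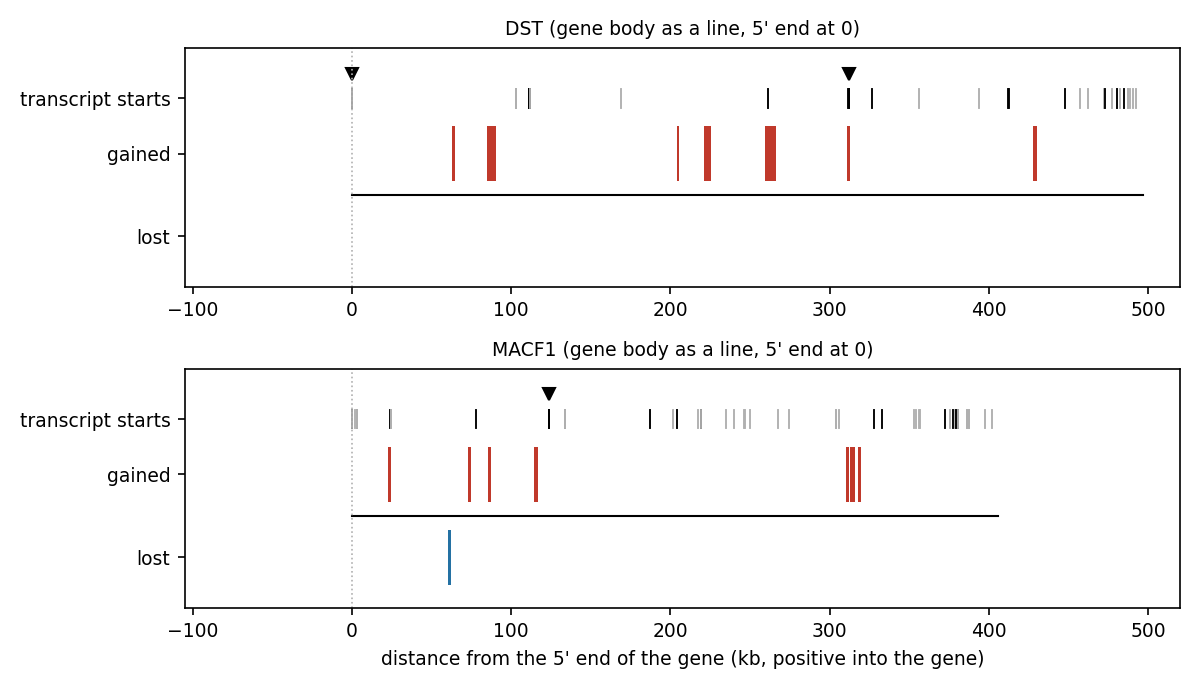
Map of DST (upper panel) and MACF1 (lower panel), with distance from the 5′ end of the gene in kb on the horizontal axis. Red bars are gained and blue bars lost regions drawn to scale, ticks are transcript starts (black for protein-coding transcripts, grey for others) and triangles are the starts of the MANE reference transcripts. The 13 gained regions of DST run from 63.7 to 429 kb, and the lost region of MACF1 lies at 61.1 kb among gained ones.

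No gained region lay within 2500 bp of the 5′ end of DST, from which the nearest was 62.6 kb away, but 5 of its 39 distinct transcript starts, each used by a protein-coding transcript, lay inside a gained region. The regions over these starts were 2 of the 13, and 4 of the 13 lay within 2500 bp of a start. One of the 2 covered the shared start of DST-240 and DST-223 at position 56693303. The other, at chr6:56642072-56644080, covered the starts of 5 transcripts. They include DST-201 at 56642996, which runs on for 185 kb to the 3′ end of the gene, and DST-205 at 56642889, which ends after 28.3 kb. DST-205 is a reference (MANE Plus Clinical) transcript and models the short epithelial form, BPAG1e, which links keratins to the hemidesmosome. The start of the long transcript DST-222, at 56851951, lay 12.2 kb downstream of the block of 3 abutting regions, outside any listed region. The distance to a start says nothing about which transcript was made, since no RNA was measured in these files.

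The RefSeq promoter table for this genome (GRCh38.p14) held 7 windows for 3 of the 6 genes, 3 each for DST and MACF1 and 1 for DSP, each running from 250 bases before to 50 after a start. The 3 windows of DST are shown because they separate the start inside a gained region from the 2 outside. All are on the minus strand, written 5′ to 3′, and capitals mark the TEAD core CATTCC, the AP-1 motif TGANTCA and the SP/KLF motif GGGCGG on either strand. In the first window the TEAD core overlaps the first SP/KLF match by its last base.
DST start at 56954830, chr6:56954781-56955080: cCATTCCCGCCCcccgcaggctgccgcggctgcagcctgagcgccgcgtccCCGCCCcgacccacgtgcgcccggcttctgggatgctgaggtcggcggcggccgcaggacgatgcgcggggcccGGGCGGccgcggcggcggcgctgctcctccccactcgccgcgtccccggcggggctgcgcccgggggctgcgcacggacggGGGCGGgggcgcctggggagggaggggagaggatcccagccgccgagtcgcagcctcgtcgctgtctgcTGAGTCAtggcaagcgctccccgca
DST start at 56851905, chr6:56851856-56852155: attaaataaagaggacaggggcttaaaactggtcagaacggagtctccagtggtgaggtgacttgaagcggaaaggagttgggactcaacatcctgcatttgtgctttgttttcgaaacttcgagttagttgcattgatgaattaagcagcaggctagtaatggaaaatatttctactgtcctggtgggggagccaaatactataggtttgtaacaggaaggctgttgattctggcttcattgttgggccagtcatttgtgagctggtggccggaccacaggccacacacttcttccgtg
DST start at 56642889, chr6:56642840-56643139: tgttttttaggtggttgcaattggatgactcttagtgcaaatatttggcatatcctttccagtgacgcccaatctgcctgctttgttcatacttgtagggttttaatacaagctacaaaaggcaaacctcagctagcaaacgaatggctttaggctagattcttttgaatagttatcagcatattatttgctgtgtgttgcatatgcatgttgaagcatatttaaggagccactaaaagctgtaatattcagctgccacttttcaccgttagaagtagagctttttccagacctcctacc

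The first window had a GC content of 80%, a ratio of observed to expected CpG dinucleotides of 0.938, 4 SP/KLF matches, 1 AP-1 match and 1 TEAD core, and it lay 62.6 kb from the nearest gained region. The second had a GC content of 46.3% and a CpG ratio of 0.395, 12.3 kb from the nearest gained region. The third, at the start of the epithelial form and within a gained region, had a GC content of 39.3% and a CpG ratio of 0.259. Neither the second nor the third held any of the 6 motifs searched. The stretch before the other start inside a gained region, that of DST-240, is given for comparison with the third window. It too held no match, and these absences say only that the letters are not in these windows.
Before the DST-240 start, minus strand, chr6:56693304-56693503: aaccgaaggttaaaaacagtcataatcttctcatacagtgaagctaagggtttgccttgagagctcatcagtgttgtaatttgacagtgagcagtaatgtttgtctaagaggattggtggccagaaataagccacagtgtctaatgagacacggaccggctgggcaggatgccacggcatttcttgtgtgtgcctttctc

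Sequence features of the gained regions were not used to choose them. The 13 gained regions of DST had a median GC content of 37.4% (range 34.5 to 43%), and 13 of 13 lay below the median of all 3623 gained regions, 46.1%. The gene body of DST itself had a GC content of 38.1%. Their median CpG ratio was 0.186, against 0.247 over all gained regions. The median width was 2000 bp against 1697 bp, and 11 of the 13 were wider than the overall median. The study's methods set a typical bin size of 2000 bp, and the part of binning in these widths was not tested. The narrowest, the 260 bp region in intron 4, had a CpG ratio of 0. Regions of one gene abut and share its base composition, so that they are not independent observations.

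**Figure D2:**
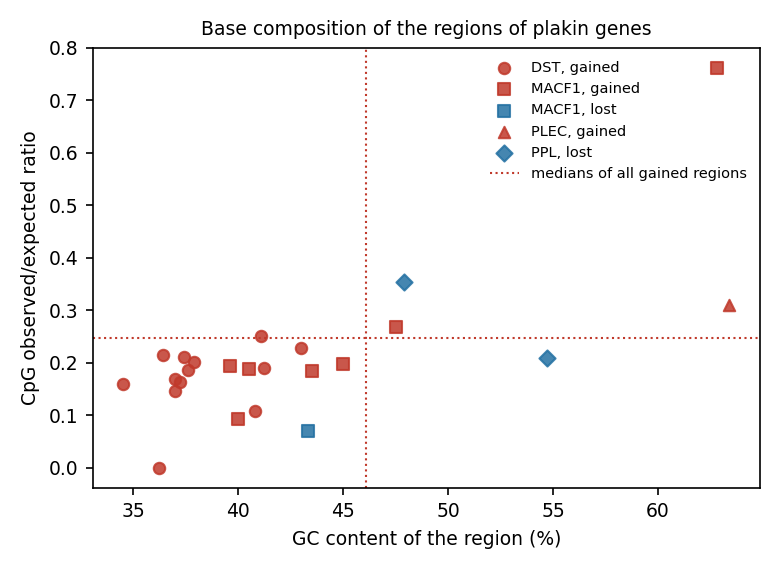
Base composition of the 24 listed regions of plakin genes, with GC content (%) on the horizontal axis and the CpG observed/expected ratio on the vertical axis. Each point is 1 region, red for gained and blue for lost, and dotted lines are the medians of all gained regions (46.1% and 0.247). All 13 DST regions lie left of the vertical line, and 1 MACF1 region stands apart at 62.8% and 0.762.

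The AP-1 motif TGANTCA, searched on both strands, was found in 10 of the 13 gained regions of DST (76.9%), with 18 matches in 25.3 kb or 0.71 per kb. Over all gained regions 53.6% held a match, at 0.576 per kb. The share rises with the length searched, so the rate per kb is the value to compare. N stands for any base, so the matches include TGAATCA and TGATTCA as well as TGAGTCA and TGACTCA. The rates do not separate these forms, and the part of base composition in the rates was not tested. Of 35116 RefSeq promoter windows, which are shorter than most regions, 7.71% held a match, at 0.275 per kb. The block of 3 abutting regions upstream of the DST-222 start held 6 of the 18 matches, spread over each of its regions. These 6 do not stand for the forms of all 18, since most matches outside the block read TGAATCA or TGATTCA. The 6 are shown with 17 bases on either side, on the minus strand, with the motif in capitals.
DST, chr6:56869264-56869304: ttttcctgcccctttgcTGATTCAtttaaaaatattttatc
DST, chr6:56868842-56868882: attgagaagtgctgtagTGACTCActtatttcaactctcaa
DST, chr6:56868463-56868503: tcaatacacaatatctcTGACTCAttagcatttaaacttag
DST, chr6:56867294-56867334: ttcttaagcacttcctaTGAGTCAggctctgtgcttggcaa
DST, chr6:56865680-56865720: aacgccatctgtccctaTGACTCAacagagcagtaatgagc
DST, chr6:56864414-56864454: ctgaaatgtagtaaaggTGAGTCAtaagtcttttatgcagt

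The other 5 motifs were found in a share of DST regions similar to or below that of the whole list. The TEAD core CATTCC was in 8 of 13 (61.5%, against 58.8% of all gained regions), but at 0.434 matches per kb against 0.625. The SP/KLF motif GGGCGG was in 2 of 13 (15.4% against 42.9%). The serum response factor (SRF) CArG box was in 1 of 13 (7.69% against 7.76%), and the NRF1 motif was in 0 of 13 against 6.4%. The composite ATF4-C/EBP motif TGATGCAA was in 1 of 13 (7.69% against 10.1%). In RefSeq promoter windows the shares were 14% for the TEAD core (0.519 per kb), 45% for SP/KLF (3.59 per kb), 1.29% for the CArG box (0.0441 per kb), 5.78% for NRF1 (0.277 per kb) and 0.866% for ATF4-C/EBP (0.0293 per kb). The single ATF4-C/EBP match is shown because it lay in the gained region over the BPAG1e start. It reads as the reverse complement on the minus strand, with the motif in capitals.
DST, minus strand, chr6:56643458-56643499: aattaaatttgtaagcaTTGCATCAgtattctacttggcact

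Among all 19970 protein-coding genes, 4 held at least 13 gained regions, and DST had rank 4. Long genes have more room for regions. Among the 510 protein-coding genes of at least 400 kb, 28.6% held a gained region and 27.8% a lost one, the median count of gained regions was 0 and 364 held 0. DST had the highest count and the highest density of gained regions in this group, as the choice of the gene by its count favours. MACF1, of 406 kb, shared rank 6 by count and had rank 3 by density. These ranks are positions in the lists and were not tested.

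**Figure D3:**
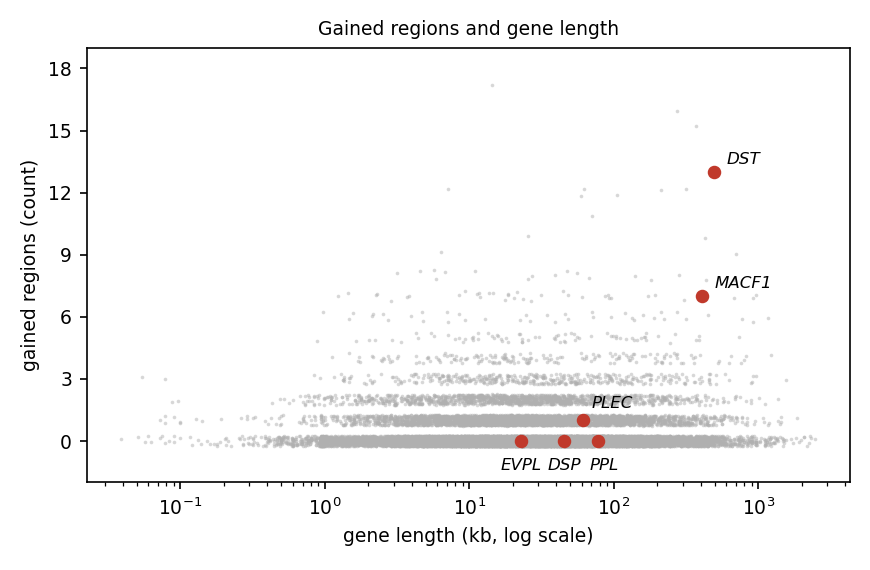
Gained regions per protein-coding gene (vertical axis, count) against gene length in kb (horizontal axis, log scale). Grey points are the 19970 genes, shifted vertically by a small random amount to separate equal counts, and red points are the 6 plakin genes at their exact values. DST (13) and MACF1 (7) lie among the long genes with high counts, and the other 4 hold 0 or 1.

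The genes most like DST in their pair of counts differed by 1 region, each with 12 gained and 0 lost. They were DCBLD2, TPX2 and BCL2L1, chosen among the equally distant by length. TPX2 and BCL2L1 are neighbours that shared the same 12 regions, of which 11 lay in the body of BCL2L1 and 0 in that of TPX2. DCBLD2 had 2 of its 12 in its body, and DST had 13 of 13. Placement within the body was not particular to DST among genes with such counts. EXT1 (317 kb) and PDGFC (211 kb), the next by distance and named after their values were seen, each held 12 gained and 1 lost, with 12 of 12 gained regions in the body. The likeness is over 2 counts from lists of one experiment.

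MACF1 spans chr1:39081316-39487177 on the plus strand (ENSG00000127603.32), with 58 transcripts and 53 distinct starts. Its 7 gained regions covered 14.5 kb, 3.58% of the body, at 1.72 per 100 kb. They fell into an early group at 23.7, 73.7, 86.5 and 116 kb from the 5′ end and a late group at 311, 314 and 319 kb, with 193 kb between the groups that held no listed region. The early group lay upstream of the reference (MANE Select) transcript of the gene, whose start is 123 kb into the gene, and the late group lay in its intron 58. The gained region at 73.7 kb also overlaps RNA5SP44, a 5S ribosomal RNA pseudogene.

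The lost region of MACF1, chr1:39141315-39143499, lay between the first 2 gained regions, at 61.1 kb. It was 35.3 kb from the gained region before it and 10.6 kb from the one after it. Changes in both directions were thus listed within the first 100 kb of the gene. Its GC content was 43.3%, its CpG ratio 0.0695, and it held 2 AP-1 matches and 2 TEAD cores.

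One gained region of MACF1 covered transcript starts. This region, chr1:39103972-39105971, held the starts of MACF1-226, MACF1-211 and MACF1-248, of which MACF1-226 is protein-coding and runs for 218 kb. It was 22.7 kb from the 5′ end of the gene. Its GC content was 62.8% and its CpG ratio 0.762, whereas the other 6 gained regions of MACF1 had GC contents of 39.6 to 47.5%. The bases before the MACF1-226 start are shown as a contrast to the windows of DST at gained regions, with the SP/KLF motif GGGCGG in capitals on either strand, 3 times in this stretch.
Before the MACF1-226 start, plus strand, chr1:39105211-39105410: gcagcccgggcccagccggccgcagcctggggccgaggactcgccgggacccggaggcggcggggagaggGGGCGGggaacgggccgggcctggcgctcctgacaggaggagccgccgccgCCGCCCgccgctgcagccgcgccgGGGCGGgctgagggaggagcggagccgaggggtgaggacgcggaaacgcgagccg

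The 3 RefSeq starts of MACF1 lay outside listed regions, at 19.8, 6.49 and 8.12 kb from the nearest gained one. Over the family, 5 of 21 gained regions lay within 2500 bp of an annotated transcript start of their gene, 4 in DST and 1 in MACF1, and 0 lay within 2500 bp of a gene's 5′ end. Of all gained regions inside a protein-coding gene and more than 2500 bp from its 5′ end, 29.6% were within 2500 bp of another start of that gene. The plakin count is close to this background, and nothing particular to these genes is read from it.

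AP-1 matches were in 3 of the 7 gained regions of MACF1 (42.9%), TEAD cores in 3, SP/KLF matches in 3 with 11 matches in all, CArG boxes in 2, and ATF4-C/EBP and NRF1 motifs in 0. Across the 21 gained regions of the family, with a median width of 2000 bp, 61.9% held an AP-1 match, against 53.6% of all gained regions, but the rate of 0.523 per kb was below the 0.576 of the whole list. For the TEAD core the share was 52.4% against 58.8%, and the rate 0.374 against 0.625 per kb. For SP/KLF the share was 23.8% against 42.9%, and the rate 0.324 against 1.08 per kb. The CArG box was in 14.3% against 7.76%, at 0.0748 against 0.0498 per kb, and ATF4-C/EBP in 4.76% against 10.1%, at 0.0249 against 0.0671 per kb. Their median GC content was 40%, and 18 of the 21 lay below the median of all gained regions.

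PLEC spans chr8:143915153-143976734 on the minus strand (ENSG00000178209.17), a body of 61.6 kb. Its single gained region, chr8:143928131-143928392, was 262 bp wide, lay in intron 25 of the reference transcript PLEC-202 at 48.5 kb and was 11.2 kb from the nearest transcript start. With a GC content of 63.4%, close to the 63.6% of the gene body, it stood apart from the regions of DST, and it held none of the 6 motifs. The region also counted for EPPK1, which encodes epiplakin, a plakin made of plakin repeats, and whose 5′ end lies within 100 kb. EPPK1 held 2 gained and 0 lost regions by the same rule, 0 of them in its body. Around PLEC, 7 other gained and 2 lost regions were listed within 1 Mb.

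DSP spans chr6:7541338-7586714 on the plus strand (ENSG00000096696.16, 45.4 kb), and EVPL spans chr17:76004502-76027306 on the minus strand (ENSG00000167880.8, 22.8 kb). Neither held a listed region. The RefSeq promoter window of DSP had a GC content of 77%, a CpG ratio of 0.833 and 8 SP/KLF matches. Around EVPL, 7 lost and 0 gained regions were listed within 1 Mb, and around DSP 1 of each. A gene with no listed region may carry stable H3K27ac or none, and the lists do not separate these states. For 5 gained regions in the 3′ parts of the spectraplakin genes, the closest outermost 5′ end of a protein-coding gene was not that of the member. It was that of COL21A1, a collagen gene, for 2 regions of DST (130 and 248 kb away) and of BMP8A for 3 of MACF1 (90.7 to 98.4 kb away). Internal transcript starts of the members lay closer. One of the 2 DST regions was the region over the BPAG1e start, and the other lay 15.3 kb from a DST start. The 3 MACF1 regions lay 4.15 to 8.55 kb from a MACF1 start.

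PPL spans chr16:4882507-4960741 on the minus strand (ENSG00000118898.16), a body of 78.2 kb. Its 2 lost regions abut and form 1 block of 4012 bp, chr16:4913808-4917819, in intron 1 of PPL-201 and over 5.13% of the body. They lay at 43.8 and 45.8 kb, and the nearest transcript start of PPL was 19.2 kb away. Counting only the outermost 5′ end of each protein-coding gene, the closest to the block was that of SEC14L5, at 40.5 kb. That of PPL was at 42.9 kb, but internal starts of PPL lay closer, among them that of the reference transcript PPL-201. GC contents were 47.9 and 54.7%. Both held AP-1 matches, 4 in all, which made AP-1 present in all 3 lost regions of the family, against 56.5% of all lost regions. The rate was 0.968 against 0.512 matches per kb. With 3 regions, 2 of which abut, nothing is read from this. The matches are shown on the minus strand with the motif in capitals, the first line holding a pair, TGAATCA and TGATTCA.
PPL, chr16:4917203-4917243: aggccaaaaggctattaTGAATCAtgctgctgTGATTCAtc
PPL, chr16:4916843-4916883: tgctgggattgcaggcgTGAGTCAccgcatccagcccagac
PPL, chr16:4915731-4915771: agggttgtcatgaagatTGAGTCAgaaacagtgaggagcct

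Lists of genes related to plakins by site or function were counted by the same rule. Over all protein-coding genes, 30.6% held a gained and 21.6% a lost region. At the hemidesmosome, where BPAG1e and plectin dock, 5 of 9 genes held a gained region (55.6%) and 4 of 9 a lost one (44.4%). The median gene length in this list was 54.6 kb, against 27.5 kb for all genes, and the part of length was not tested. LAMA3 and LAMB3, 2 chains of the ligand laminin-332, held 2 gained and 0 lost each, outside their bodies. ITGA3, a laminin receptor chain, held 2 gained and 1 lost. ITGB4, the integrin chain that binds plectin, held 0 gained and 3 lost, and its partner ITGA6 0 gained and 1 lost.

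The desmosome list held 14 genes, most of which encode cadherins of desmosomes or proteins that tie them to desmoplakin. Of these, 4 held a gained region (28.6%), 3 a lost one (21.4%) and 9 neither. CTNNA1, in the list although it is the actin-binding catenin of adherens junctions, held 2 gained, 0 of them in its body. JUP (plakoglobin) held 1 gained, PKP1 1 gained and 2 lost, PKP4 1 of each, and PKP2 1 lost. Of 12 cornified envelope genes 10 held neither, with TGM1, a crosslinking transglutaminase, at 2 gained and 1 lost and TGM3 at 1 lost. Both shares in the desmosome list are close to those of all genes. In the cornified envelope list 8.33% held a gained region, against 30.6% of all genes, and 16.7% a lost one, against 21.6%. Of all 19970 protein-coding genes, 10983 held neither. Nothing is read from the counts of such short lists.

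Of 19 intermediate filament genes, 9 held a gained region (47.4%) and 11 a lost one (57.9%), with 6 holding both. LMNA, the nuclear lamina gene, held 5 gained and 0 lost, with 1 of the 5 in its body. NES (nestin) held 3 gained and 1 lost, with 0 in its body. KRT8 and KRT18, the keratin pair of simple epithelia, held 6 lost and 1 gained each, with all of them shared between both. Of the 6 lost ones, 4 lay in the body of KRT8 and 0 in that of KRT18. KRT7 held 5 lost and 2 gained, with 1 of the lost ones in its body. The 11 genes with lost regions therefore do not stand for as many separate events, since neighbouring keratin genes share regions.

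Of 19 genes for microtubule plus-end and anchoring proteins, not all of them partners of spectraplakins, 8 held a gained region (42.1%) and 1 a lost one (5.26%). CLASP1, which stabilises plus ends, held 3 gained, 2 of them in its body, and CLIP1, a plus-end tracker, 2 gained within its body. CAMSAP2, which binds minus ends, held 1 gained outside its body. GAS2L3, which shares the GAS2 domain of spectraplakins, held 1 of each. Of 19 spectrin repeat and actin crosslinking genes, 6 held a gained region (31.6%) and 11 a lost one (57.9%). ACTN1 (alpha-actinin) held 5 lost and 0 gained, with 2 of the lost ones in its body. SPTBN5, a spectrin beta chain, held 3 lost and 0 gained, with 0 in its body. SPTBN1, another spectrin beta chain, held 4 gained within its body, FLNC 4 gained outside its body, and FLNA 2 gained and 1 lost. The median gene length was 102 kb in the microtubule list and 109 kb in the actin list, against 27.5 kb for all genes, and the part of length in these counts was not tested. The split between the lists was not tested.

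**Figure D4:**
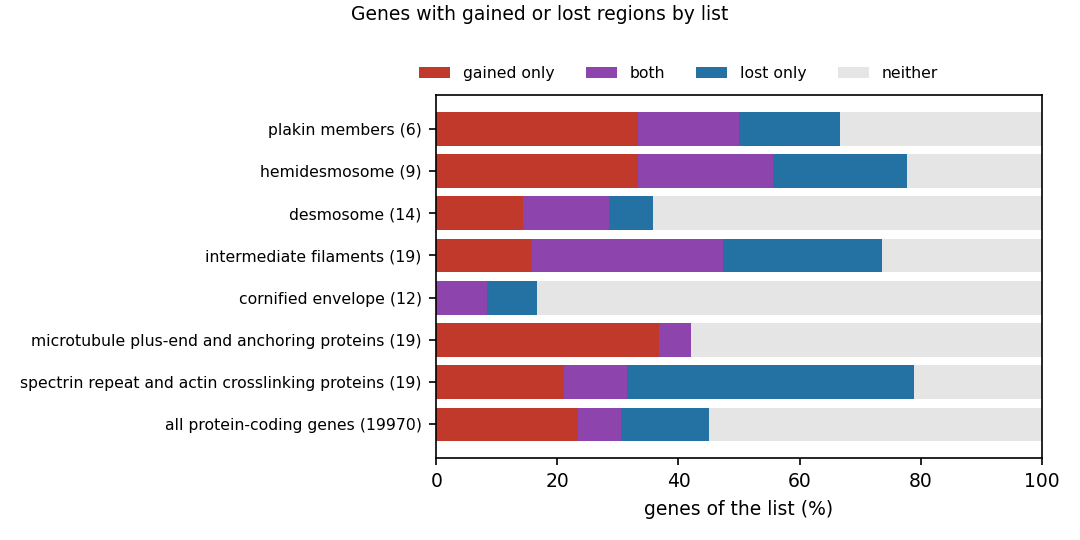
Share of genes (%, horizontal axis) with gained regions only, both kinds, lost regions only or neither, for the plakin genes, 6 lists of related genes and all 19970 protein-coding genes, with the number of genes in brackets. In the microtubule list 7 of 19 genes hold gained regions only and 0 hold lost regions only. In the spectrin and actin list 9 of 19 hold lost regions only. Of all 19970 genes, 4664 hold gained regions only and 2879 lost regions only, and the differences were not tested.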

How the data were processed

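H3K27ac ChIP-seq had been carried out in LX-2 cells. According to the study's methods, the authors mapped reads to hg38 with Chromap, called peaks per library against input with MACS2 (version 2.1.1.20160309 in the submitters' processing notes), divided the peaks into bins and compared the arms over all replicates with MAnorm2. The deposited lists hold positions only (chromosome, start, end) of gained and lost regions, at an adjusted p of 0.15 according to their names, and the methods text names a stricter value. Depth per region is unknown, and 11 listed regions off chromosomes 1 to 22 and X were counted in the totals but belong to no gene here.

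Starts were converted to count from 1. Genes and transcripts came from GENCODE release 44. Regions were assigned, measured and searched for 6 motifs with Python 3.11.15 and pysam 0.24.0, checked on simulated regions. The members and lists were chosen with earlier results of these data known. Named are the 6 members, up to 3 genes a direction from each list, the 3 genes closest to DST by counts and the closest 5′ ends. One gene that this rule names is not reported here. Nothing was tested for significance, because no replicate values were used. Alternatives covered the window, the joining of regions, the nearest gene or 5′ end, the definition of a start and the motif search width.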

Additional observations from a re-analysis of the deposited data

How the results depend on the processing

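Of 28 values recomputed under another setting, 12 could not change because of where the regions lie. All 24 regions lie in the gene bodies, so narrower windows around the 5′ end, region centres and the nearest gene by its body give the same counts by construction and say nothing about stability. Of the other 16, 11 stayed within 1.5 times the reported count or, for motif shares, within the 95% binomial (Wilson) interval of the reported share. This interval takes the 21 gained regions as independent, although several abut, so it is only a rough bound. The 11 include the NRF1 share of 0, which could not change either, because a narrower search adds no match. The gained regions of DST numbered 8 rather than 13 when regions within 1000 bp were merged, since bins of one peak abut. An alternative chosen after seeing the data kept only regions whose nearest protein-coding 5′ end was that of the member. It left 16 of 21 gained regions, 11 of 13 in DST, and 1 of 3 lost regions. This alternative counted only the outermost 5′ end of each gene and passed over internal starts, which lay closer for the gained and lost regions it dropped. Regions near a transcript start numbered 0 rather than 5 when only the 5′ end of the gene was counted. In the central 1000 bp of each gained plakin region, over fewer bases, the share with a TEAD core was 28.6% rather than 52.4% and that with a CArG box 4.76% rather than 14.3%. The share with an SP/KLF match fell to 14.3% from 23.8%, within the wide interval of 10.6 to 45.1%. Shares in the central 1000 bp were not computed for all gained regions, so these values have no background beside them. No paired analysis was possible because replicate values do not accompany the regions. For the same reason no replicate could be left out and no stricter threshold was applied. The read depth is unknown, so a gene with no listed region may differ below what could be called.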
